A study of Mus musculus with 6 samples.

Results

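The receptor tyrosine kinases of the PDGF, ERBB, MET, AXL and DDR families were described in CD24- and CD24+ Mvt1 cells, together with Gas6, the ligand of AXL. The set holds 10 genes (Pdgfra, Pdgfrb, Egfr, Erbb2, Erbb3, Met, Axl, Gas6, Ddr1 and Ddr2) of 14765 gene annotations in the files, and a gene entered it only by its symbol. Mvt1 is a mouse mammary carcinoma line of the FVB/N strain, labelled as mammary epithelial cancer cells. The cells were stained for surface CD24, sorted on a FACSAria into a negative and a positive group, and grown as adherent cultures in DMEM with fetal bovine serum, with no further treatment in either group. mRNA was sequenced from 3 plates of CD24- cells and 3 plates of CD24+ cells. The comparison asks which transcripts differ between the 2 sorted groups of this 1 line. The plates are not stated to be separate sorts, so every p-value below measures the spread between plates.

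Receptor tyrosine kinases are single-pass membrane proteins that phosphorylate themselves and their adaptors when a ligand brings receptor chains together. In the mammary gland, EGFR, ERBB2 and ERBB3 answer EGF-type and neuregulin ligands in epithelial cells, and MET is the receptor of hepatocyte growth factor, which is made mainly by mesenchymal cells. PDGF receptors are best known from fibroblasts and pericytes, AXL and its vitamin K-dependent ligand GAS6 from mesenchymal and motile cells, and DDR1 and DDR2 bind collagen itself, DDR1 mostly in epithelia and DDR2 mostly in connective tissue.

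Each unit of data was a read of 47 nt with its count in each library. The most counted read inside the coding sequence of each of 5 members is shown here because these reads are what the results below add up, 3 from members that were higher and 2 from members that were lower in CD24+ cells. The letters are in lower case, 5′ to 3′ along the transcript, with no part marked.
Axl: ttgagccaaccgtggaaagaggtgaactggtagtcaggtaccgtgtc
Gas6: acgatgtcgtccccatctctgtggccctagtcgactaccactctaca
Ddr2: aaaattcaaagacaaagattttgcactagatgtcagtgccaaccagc
Met: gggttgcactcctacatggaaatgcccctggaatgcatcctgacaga
Ddr1: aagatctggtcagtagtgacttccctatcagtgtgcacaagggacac

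In the files' build, mm9, the Axl read lies at chr7:26555273-26555319 on the minus strand and starts at base 1436 of the 2664-base coding sequence. It was counted 7 times in the CD24- libraries and 89 times in the CD24+ libraries. The Gas6 read, at chr8:13468209-13468255 on the minus strand and base 1577 of 2022, was counted 4 and 48 times. The Ddr2 read, at chr1:171917199-171917245 on the minus strand and base 1758 of 2562, was counted 2 and 47 times. All 3 reads had a higher rate in every CD24+ library than in any CD24- library. Since they were picked for a high count, which the CD24+ libraries mostly supplied, this separation is no test of the genes. The Met read, at chr6:17442095-17442141 on the plus strand and base 856 of 4137, was counted 26 times in each group, and the Ddr1 read, at chr17:35821992-35822038 on the minus strand and base 1892 of 2733, 8 and 6 times. The CD24+ libraries held more reads in total, so equal raw counts stand for a lower rate there.

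Gene reads numbered between 6491832 and 19100843 a library (71.8% to 74.3% of the mapped reads), with CD24+ replicate 1 the shallowest. Levels below are in CPM, counts per 1000000 gene reads after TMM scaling. CD24- replicates 1 and 2 differed least (chi-square per degree of freedom 1.75), and CD24- replicate 3 stood further from both (10.2 and 11.9). Pairs of CD24+ libraries had 9.69 to 15.9, so the distances of CD24- replicate 3 were not unusual. Cd24a, the sorted marker, had 6.99 to 12.1 CPM in CD24- and 72.5 to 85.5 CPM in CD24+ libraries. The epithelial label was checked against 10 luminal markers: Krt8 (1229 ± 76.0 CPM in the negative and 596 ± 60.8 in the positive group, SD, n = 3) and Krt18 (732 ± 36.0 and 213 ± 17.1) were abundant, whereas Cdh1 and Epcam had 2 and 6 reads over all libraries. Of the 10, 4 were tested: Krt8, Krt18 and Krt19 were lower (log2 fold-changes -1.05, -1.78 and -1.96) and the scarce Cldn3 was higher in CD24+ cells (2.47, edgeR adjusted p = 0.00407), and the summed levels were 1847 to 2042 and 761 to 906 CPM. The Krt8 call was lost when each distinct sequence was counted once (-0.46, edgeR adjusted p = 0.0712). Over 8237 genes, the median share of reads in the 3′-most of 3 equal parts of the transcript was 30.3% to 31.0% in CD24- and 31.45% to 31.6% in CD24+ libraries, and its part in the results was not tested. Of 8 basal markers 1 was tested and higher (Acta2), with summed levels of 0.947 to 1.80 and 6.94 to 14.2 CPM, and of 6 endothelial markers 2 were tested and 1 was lower (Cdh5), with 2.71 to 4.74 and 0.786 to 2.05 CPM. Beside these counts of luminal, basal and endothelial markers, 23.8% of all genes tested were called higher and 22.3% lower. Cldn3 and Acta2 reached the test only through the CD24+ libraries and Cdh5 only through the CD24- libraries. The direction of these genes was thus set by the filter on low counts.

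Of the 10 genes, 9 had enough reads for the test and Erbb3 did not. All 9 passed edgeR's quasi-likelihood test at an adjusted p below 0.05, where 46.1% of the 11125 genes tested did. Pdgfrb, Axl, Gas6, Ddr2 and Pdgfra were higher in CD24+ cells, a direction called for 23.8% of all genes, and Met, Ddr1, Egfr and Erbb2 were lower, called for 22.3%. For 8 of the 9 the groups did not overlap, which was also so for 57.3% of all genes. The median log2 fold-change of the 9 was 0.87, and that of the 8 receptors without Gas6 was 0.29, beside 0.02 over all genes tested. The 0.29 falls between Pdgfra (0.87) and Erbb2 (-0.29), and no receptor had a value near it. In RNA of whole cultures, fewer cells that express a gene and less RNA per cell cannot be told apart.

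**Figure D1:**
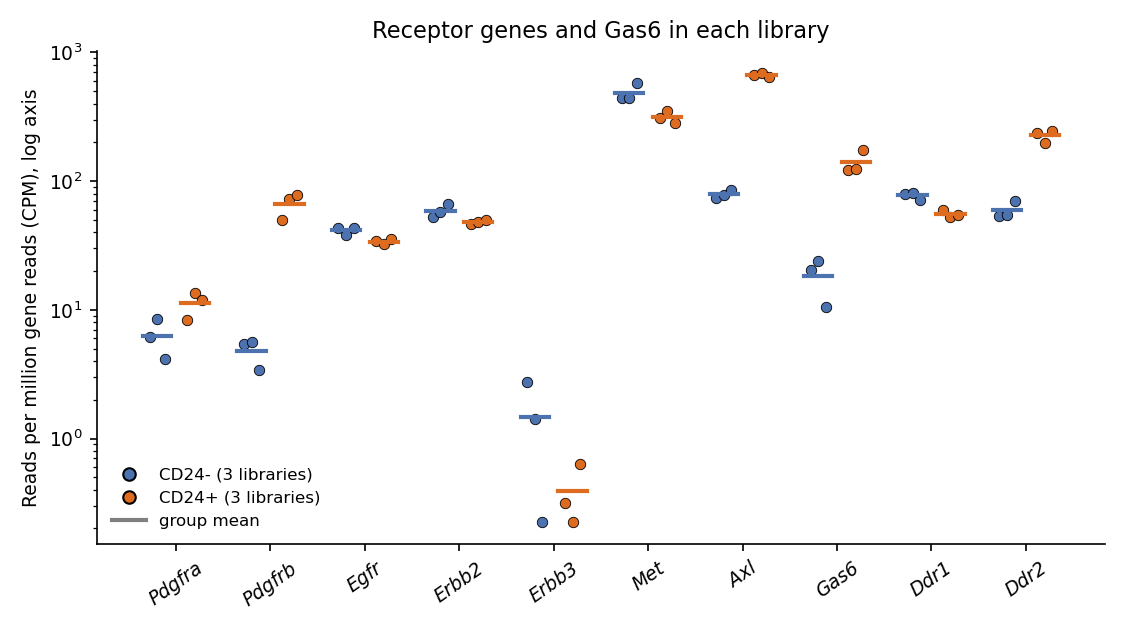
Counts per 1000000 gene reads (CPM, log axis) of each receptor gene and of Gas6 in the 3 CD24- libraries (blue) and the 3 CD24+ libraries (orange), with bars at the group means. Axl moved from 79.0 to 669 CPM and Pdgfrb from 4.81 to 66.6 CPM, while the Pdgfra values of the 2 groups overlap.

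The largest change among the receptors was that of Pdgfrb, the PDGF receptor beta chain, which binds PDGF-B and PDGF-D. It had 5.47, 5.59 and 3.38 CPM in CD24- replicates 1 to 3 and 49.9, 72.5 and 77.5 CPM in CD24+ replicates 1 to 3. Every CD24+ library was above every CD24- library, and the CD24- level rested on 141 reads. The means differed 13.8-fold, with a log2 fold-change of 3.79 (standard error 0.21, edgeR adjusted p = 4.57e-07). Only 0.989% of the genes tested had a larger positive log2 fold-change.

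Pdgfra, the alpha chain, was scarce in both groups. It had 6.10, 8.43 and 4.17 CPM in CD24- and 8.34, 13.5 and 11.9 CPM in CD24+ libraries, so the lowest CD24+ value lay below the highest CD24- value. Its log2 fold-change was 0.87 (standard error 0.25, edgeR adjusted p = 0.0165), and the call was lost without CD24+ replicate 2 (adjusted p = 0.0631) or replicate 3 (adjusted p = 0.0593). The ratio of Pdgfrb to Pdgfra, both as coding-sequence levels, was 0.765 ± 0.222 in CD24- and 6.72 ± 1.502 in CD24+ cells (SD, n = 3, no overlap). An exact two-sided permutation test gave p = 0.1, the smallest that 3 libraries against 3 allow.

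Of the 4 PDGF ligands, both that could be tested rose, a direction called for 23.8% of all genes. Pdgfc, a ligand of the alpha chain, had 7.10 to 9.68 CPM in CD24- and 39.2 to 51.9 CPM in CD24+ libraries, a log2 fold-change of 2.34 (standard error 0.16, edgeR adjusted p = 1.33e-06). Pdgfa had 14.6 to 20.96 and 23.0 to 34.1 CPM, a log2 fold-change of 0.74 (standard error 0.18, edgeR adjusted p = 0.00676). Pdgfb had 2 reads in CD24- and 53 in CD24+ libraries and Pdgfd 2 and 6, too few for the test.

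Those markers of the cells best known for PDGF receptors that could be tested were also higher. Of 8 fibroblast markers, 5 were tested and all 5 were higher in CD24+ cells, a direction called for 23.8% of all genes. Dcn, Col1a1 and Col1a2 were too low in CD24- cells and entered the test only through the CD24+ libraries. For these the direction was set by the filter on low counts, so the 5 cannot be weighed against that share. The summed level of the list was 6.87 to 19.3 CPM in CD24- and 110 to 196 CPM in CD24+ libraries, most of it from Col3a1 (means 10.8 and 142 CPM), while Col1a1, Col1a2 and Dcn had means of 3.19, 1.58 and 2.05 CPM in CD24+ cells. Fap had 2 reads, and Lum and Thy1 are not among the annotations of the files, where no read matched their transcripts alone either. Of 7 pericyte markers, both tested, Mcam and Notch3, were higher, with summed levels of 1.014 to 1.37 and 4.86 to 5.97 CPM. In CD24- replicates 1 to 3, Mcam had 7, 6 and 4 reads and Notch3 had 1, 0 and 1. Both thus reached the test only through the CD24+ libraries, so their direction was set by the filter on low counts. Rgs5 and Cspg4 had 1 read each, and Kcnj8 is not among the annotations and had no matching read. The part of such cells in the Pdgfrb result was not tested.

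Axl, a receptor of the TAM family, was the most changed of the abundant members. It had 73.8, 77.4 and 85.9 CPM in CD24- and 672, 689 and 646 CPM in CD24+ libraries. The spread within a group was small beside the 8.47-fold difference of the means, and no values overlapped. The log2 fold-change was 3.08 (standard error 0.09, edgeR adjusted p = 7.97e-09), exceeded by 2.78% of the genes tested.

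Gas6, which encodes the secreted ligand that bridges AXL to phosphatidylserine on membranes, rose as well. It had 20.4, 23.9 and 10.6 CPM in CD24- and 123, 124 and 174 CPM in CD24+ libraries. CD24- replicate 3 was the lowest and CD24+ replicate 3 the highest of the 6. The log2 fold-change was 2.93 (standard error 0.24, edgeR adjusted p = 5.7e-06), and 2.67 without CD24- replicate 3. Per length of coding sequence, the ratio of Axl to Gas6 was 2.82 ± 1.51 in CD24- and 2.79 ± 0.524 in CD24+ cells (SD, n = 3), and the groups overlapped (exact permutation p = 0.8).

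Of the other TAM receptors, Mertk fell and Tyro3 did not pass the test. Mertk had 31.8 to 41.8 CPM in CD24- and 9.20 to 16.1 CPM in CD24+ libraries, a log2 fold-change of -1.502 (standard error 0.20, edgeR adjusted p = 0.000159). For Tyro3 the log2 fold-change was -0.20 (standard error 0.18, edgeR adjusted p = 0.388). Pros1, which encodes protein S, a ligand of Mertk and Tyro3, had 8.52 to 10.5 and 19.2 to 23.1 CPM and a log2 fold-change of 1.21 (standard error 0.14, edgeR adjusted p = 5.72e-05). Ggcx, Vkorc1 and Vkorc1l1, which supply the vitamin K-dependent carboxylation that GAS6 and protein S need, did not pass the test, with log2 fold-changes between -0.08 and 0.22. Of 6 leukocyte markers, which are given here because Mertk is abundant in macrophages, 1 was tested, and Cd68 was lower in CD24+ cells, a direction called for 22.3% of all genes. Their summed level was 43.6 to 76.6 CPM in CD24- and 7.34 to 9.60 CPM in CD24+ libraries. Nearly all of it came from Cd68 (means of 64.6 and 8.15 CPM). Ptprc had 2 reads and Cd3e is not among the annotations, and the part of such cells in the Mertk result was not tested.

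The RefSeq table of promoters (GRCm38.p6) matched 8 of the 10 members, Pdgfrb and Erbb3 being the others. The 250 bases upstream of the Axl and Gas6 starts are shown because receptor and ligand rose together, with GGGCGG, the GC box read by Sp1-type factors, in capitals on either strand (CCGCCC on the opposite one).
Axl, chr7:25788734-25788983, minus strand: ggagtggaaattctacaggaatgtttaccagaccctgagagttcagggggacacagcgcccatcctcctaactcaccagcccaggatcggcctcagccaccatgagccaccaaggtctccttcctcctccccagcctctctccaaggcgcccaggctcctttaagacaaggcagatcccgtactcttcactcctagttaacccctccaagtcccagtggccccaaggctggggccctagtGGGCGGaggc
Gas6, chr8:13494536-13494785, minus strand: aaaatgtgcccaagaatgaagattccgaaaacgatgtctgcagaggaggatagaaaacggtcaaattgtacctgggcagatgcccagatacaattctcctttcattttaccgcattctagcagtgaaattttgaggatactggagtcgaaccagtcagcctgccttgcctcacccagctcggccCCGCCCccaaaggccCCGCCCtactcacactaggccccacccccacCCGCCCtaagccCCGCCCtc

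GGGCGG occurred once upstream of Axl and 4 times upstream of Gas6, and 32.7% of the 32851 promoters in the table hold it at least once on either strand. It also occurred 3 times upstream of Met and once upstream of Egfr, and not in these windows of Ddr2, Pdgfra or Erbb2. Neither TGANTCA, the AP-1 motif (in 6.75% of all promoters), nor CACGTG, the E-box read by Myc and USF factors (6.02%), was found upstream of Axl or Gas6, and Met held 1 of each. Of the 4 Ddr1 starts in the table, 2 held GGGCGG once, 1 held it 3 times and 1 did not hold it, and TGANTCA occurred once at 1 of them. Since GGGCGG alone was found upstream of Axl and Gas6, no matches of different motifs overlap there, and a match describes only letters in a window.

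Met, the receptor of hepatocyte growth factor, was the most abundant member in CD24- cells and fell most among those tested. It had 441, 439 and 575 CPM in CD24- and 308, 351 and 285 CPM in CD24+ libraries. All CD24+ values lay below all CD24- values, and CD24- replicate 3 was the highest. The mean was 1.54-fold lower in CD24+ cells, with a log2 fold-change of -0.63 (standard error 0.12, edgeR adjusted p = 0.00198), or -0.48 without CD24- replicate 3 (adjusted p = 0.00254). Of the genes tested, 10.2% fell further.

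Reads of the MET ligand and of the genes that activate it were few. Hgf had no read in CD24- cells, which allows up to 0.104 CPM over the 3 libraries (counting error only), and 4 reads in CD24+ cells. St14 and Spint1, an activating protease and its inhibitor, had 8 and 6 reads in CD24- and 11 and 5 reads in CD24+ libraries, and Spint2 had 0 and 9. Hgfac and Hpn are not among the annotations, and no read matched their transcripts alone. None of the 6 genes of this list could be tested.

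Of the members tested, Egfr and Erbb2 had the smallest changes. Egfr had 43.0, 38.4 and 43.5 CPM in CD24- and 34.3, 32.2 and 35.3 CPM in CD24+ libraries, without overlap. Its log2 fold-change was -0.30 (standard error 0.10, edgeR adjusted p = 0.0277), and the call was lost under 8 of 16 alternatives. Counting only reads that match transcripts of a single gene gave -0.12 (adjusted p = 0.485).

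Erbb2, the ligandless partner of the family, had 52.8, 57.2 and 66.7 CPM in CD24- and 46.3, 47.8 and 50.2 CPM in CD24+ libraries. The values did not overlap, and CD24- replicate 3 was again the highest. The log2 fold-change was -0.29 (standard error 0.10, edgeR adjusted p = 0.0406), and -0.19 without CD24- replicate 3 (adjusted p = 0.108). The call was lost under 8 of 16 alternatives.

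Erbb3, the neuregulin receptor that signals through partners, was close to the limit of these libraries. It had 26, 15 and 2 reads in CD24- and 2, 4 and 12 reads in CD24+ libraries, or 2.74, 1.42 and 0.225 against 0.315, 0.226 and 0.629 CPM. The groups overlapped, since CD24- replicate 3 had a lower CPM than all CD24+ libraries. With no filter on low counts its log2 fold-change was -1.81 (adjusted p = 0.03 from edgeR), and with DESeq2 -1.88 (adjusted p = 0.0584). Reads matching a single gene gave -1.46 (adjusted p = 0.0388). In the 4 of 6 leave-outs that kept it, it ran from -1.44 to -2.52, with an adjusted p of 0.00351 without CD24- replicate 3, and of 0.118, 0.161 and 0.0609 without CD24+ replicate 1, 2 or 3. These 4 kept Erbb3 only through CD24- replicates 1 and 2, so its direction there was set by the filter on low counts. The leave-out with the smallest p also dropped the CD24- library that made the groups overlap. Erbb4 had 3 reads in each group.

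The ligands of these receptors went in both directions. Of 11 genes, 9 were tested on the annotated counts, 3 were higher and 3 lower in CD24+ cells and 3 did not pass (66.7% called, beside 46.1% of all genes). Nrg2, neuregulin 2, is not among the annotations, but 27, 32 and 23 reads in CD24- and 75, 260 and 260 reads in CD24+ libraries matched its transcripts alone. On counts of such reads its log2 fold-change was 2.23 (standard error 0.18, edgeR adjusted p = 4.17e-06), without overlap of its coding levels. Ereg, which encodes epiregulin, had 10.8, 8.34 and 10.6 CPM in CD24- and 99.1, 86.4 and 88.6 CPM in CD24+ libraries, a log2 fold-change of 3.20 (standard error 0.12, edgeR adjusted p = 3.52e-08). Nrg1, neuregulin 1, had 1.90 to 3.83 and 9.75 to 14.96 CPM, a log2 fold-change of 2.21 (standard error 0.26, edgeR adjusted p = 6.31e-05). Epgn, epigen, was scarce and rose by 1.37 (standard error 0.32, edgeR adjusted p = 0.00529). Epgn reached the test only through the CD24+ libraries, so among the 3 higher its direction was set by the filter on low counts. In the other direction, Tgfa had 124, 125 and 145 CPM in CD24- and 48.1, 38.7 and 38.8 CPM in CD24+ libraries, a log2 fold-change of -1.66 (standard error 0.11, edgeR adjusted p = 1.19e-06). Areg, amphiregulin, and Btc, betacellulin, both had a log2 fold-change near -1 (-1.008 and -1.007, edgeR adjusted p = 0.000263 and 0.000735). Hbegf gave -0.25 (adjusted p = 0.109), while Nrg4 and Egf gave 0.23 and 0.11 (adjusted p = 0.228 and 0.854). Summed over the list, the levels were 377 to 462 CPM in CD24- and 320 to 361 CPM in CD24+ libraries.

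The 2 collagen receptors moved in opposite directions. Ddr2, which binds fibrillar collagen, had 53.7, 54.7 and 69.9 CPM in CD24- and 237, 199 and 245 CPM in CD24+ libraries. The groups were far apart, with means that differed 3.82-fold. Its log2 fold-change was 1.94 (standard error 0.12, edgeR adjusted p = 9.46e-07).

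Ddr1, which also binds basement membrane collagen IV, had 79.9, 81.2 and 71.2 CPM in CD24- and 59.3, 52.7 and 54.9 CPM in CD24+ libraries. No values overlapped, and the mean was 1.39-fold lower in CD24+ cells. The log2 fold-change was -0.48 (standard error 0.09, edgeR adjusted p = 0.00147). Per length of coding sequence, the ratio of Ddr2 to Ddr1 was 0.855, 0.881 and 1.21 in CD24- and 5.15, 4.81 and 5.97 in CD24+ libraries. The ratio was thus near 1 in the former and above it in all of the latter (exact permutation p = 0.1, the smallest possible).

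Collagen genes that encode DDR ligands were higher in CD24+ cells for 7 of 7 tested, of 9 listed, with a median log2 fold-change of 3.26, where 23.8% of all genes were called higher. Col4a1 and Col4a2, the chains of basement membrane collagen IV, rose by 3.42 and 3.26 on the log2 scale (standard error 0.09 each, edgeR adjusted p = 6.94e-09 and 7.77e-09). Col3a1 and Col5a2, of fibrillar collagens III and V, rose by 3.69 and 4.04 (standard errors 0.39 and 0.14, edgeR adjusted p = 3.08e-05 and 2.03e-08), and Col3a1 ranged from 3.49 to 14.7 CPM in CD24- and from 90.0 to 176 CPM in CD24+ libraries. Col1a1 and Col1a2 were scarce, with means of 3.19 and 1.58 CPM in CD24+ cells, and rose by 1.71 and 1.43 (edgeR adjusted p = 0.00311 and 0.0247). Both reached the test only through the CD24+ libraries, so among the 7 their direction was set by the filter on low counts. The Col1a2 call was lost with DESeq2 (adjusted p = 0.0616) and without CD24- replicate 1 (0.105), CD24- replicate 2 (0.101), CD24+ replicate 1 (0.0658) or CD24+ replicate 2 (0.0764). Col5a1 was abundant in both groups and rose by 0.30 (edgeR adjusted p = 0.0225), a call lost under 5 alternatives (adjusted p up to 0.155). The study chose a gene set rich in collagens on these same libraries, so this count is not independent evidence of direction. The part of fibroblasts in the collagen result was not tested, and Col1a1, Col1a2 and Col3a1 stand in both lists.

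To compare levels between genes, reads inside the coding sequence were divided by the number of start positions that a 47-nt read can take within 1 exon and match only that transcript. On this scale (reads per 1000 such positions per 1000000 gene reads), Met led in CD24- cells at 96.7 ± 17.0 (SD, n = 3). Ddr1 (24.8 ± 1.32), Axl (24.45 ± 1.77) and Ddr2 (24.2 ± 3.48) followed, and their ranges overlapped, so their order is not resolved. Erbb2 (17.8 ± 1.80) and Egfr (6.27 ± 0.930) came next and each stood apart from its neighbours. Pdgfra (1.52 ± 0.545), Pdgfrb (1.09 ± 0.186) and Erbb3 (0.498 ± 0.421) were lowest, and neighbours in this order overlapped.

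In CD24+ cells the order was another. Axl led at 207 ± 4.49, followed by Ddr2 at 96.8 ± 12.3 and Met at 61.9 ± 7.42, with no overlap between them. Ddr1 (18.3 ± 1.64), Pdgfrb (15.2 ± 3.50) and Erbb2 (14.6 ± 0.702) followed, Pdgfrb overlapping both of the others. Egfr (5.50 ± 1.014), Pdgfra (2.30 ± 0.588) and Erbb3 (0.136 ± 0.0668) came last, each apart from the next. Gas6, the ligand, had a level of 9.99 ± 3.82 in CD24- and 76.3 ± 14.3 in CD24+ cells.

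Among 34 receptor tyrosine kinase genes with at least 20 reads on their transcript, of 58 listed, Axl moved from rank 10 in CD24- to rank 1 in CD24+ cells, Ddr2 from 11 to 3 and Pdgfrb from 24 to 12. Met moved from rank 2 to rank 6. Ddr1, Erbb2, Egfr, Pdgfra and Erbb3 shifted by 1 or 2 ranks. Epha5, Alk and Tek are not ranked, since only 3 reads matched the transcripts of each alone although 3634, 357 and 63 reads carried their annotations, and Csf1r is ranked with no read in its coding sequence. Ranks are given without a test, and neighbouring ranks can overlap. In CD24- cells rank 1 had 98.2 ± 8.92 and Met 96.7 ± 17.0, and Ddr1, Axl and Ddr2 at ranks 9 to 11 overlapped. In CD24+ cells Ddr2 had 96.8 ± 12.3 and rank 4 had 95.4 ± 4.98 (SD, n = 3).

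Summed over the 9 receptors, the coding level was 184, 187 and 221 in CD24- and 424, 420 and 423 in CD24+ libraries. Met made up 48.8% ± 3.30 of this sum in CD24- and 14.7% ± 1.84 in CD24+ cells. Axl made up 12.4% ± 0.628 and 49.1% ± 1.19, and Ddr2 12.2% ± 0.466 and 22.9% ± 2.80 (SD, n = 3). For these 3 receptors the shares were close within a group, and no library of one group fell in the range of the other. In CD24- replicates 1 to 3, the share of Egfr varied more beside its mean (3.88%, 3.42% and 2.39%). That of Erbb2, also scarcer than Met, Axl and Ddr2 there, varied little (8.99%, 9.10% and 8.975%). The ratio of Axl to Met was 0.256 ± 0.0284 in CD24- and 3.38 ± 0.333 in CD24+ cells (exact permutation p = 0.1). In contrast, the ratio of Egfr to Erbb2 was 0.358 ± 0.0841 and 0.375 ± 0.0506, and the groups overlapped (exact permutation p = 0.8). Over 7 such ratios the smallest p possible was 0.1, so none could pass a threshold of 0.05.

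**Figure D2:**
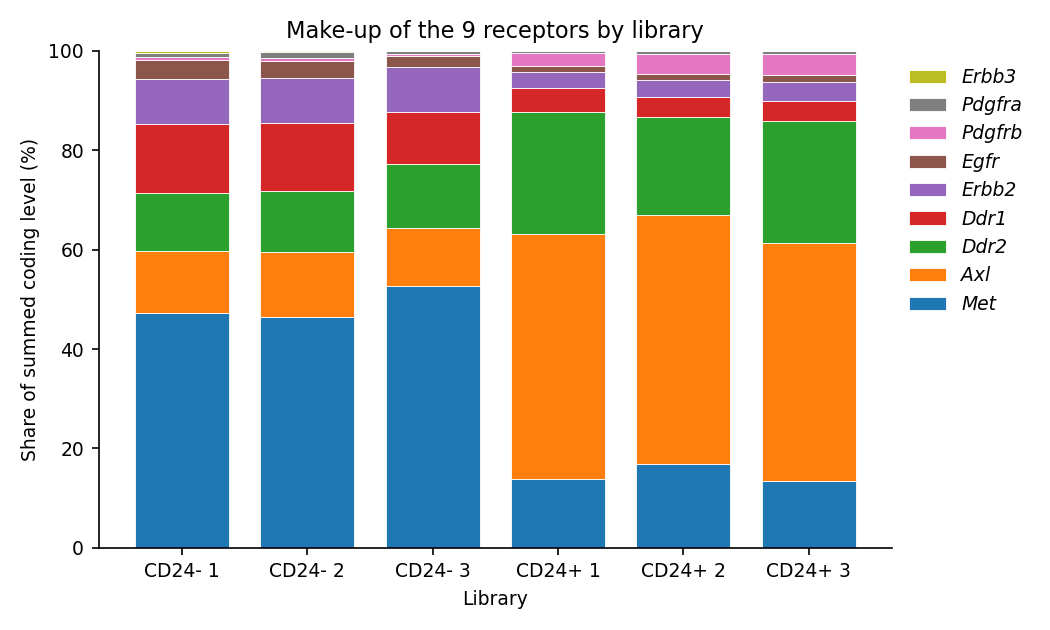
Share (%) of each of the 9 receptors in their summed coding-sequence level, 1 bar per library. Met takes 46.5% to 52.6% of the sum in CD24- libraries and Axl takes 47.8% to 50.2% in CD24+ libraries.

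The coding sequence of each member was cut into 4 segments of equal length and each segment was compared on its own, so that a difference carried by a few positions would show. For Pdgfrb the log2 ratio of CD24+ to CD24- means lay between 3.64 and 4.16 over the segments, for Axl between 3.02 and 3.26, for Gas6 between 2.75 and 3.06 and for Ddr2 between 1.90 and 2.12. For Met it lay between -0.71 and -0.61 and for Ddr1 between -0.51 and -0.39. In each of these 6 genes, all 4 segments separated the libraries of the groups without overlap. Egfr ranged from -0.56 to -0.05 with 1 segment of 4 separated, Erbb2 from -0.41 to -0.13 with 3 of 4, and Pdgfra from 0.18 to 1.007 with 0 of 4. Outside its coding sequence, Pdgfra gave -1.52 in the 5′ untranslated region (12 CD24- and 8 CD24+ reads). In the 3′ untranslated region it gave 1.30 (63 and 247 reads), and neither region overlapped between the groups. The segments share their libraries and are not replicates.

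**Figure D3:**
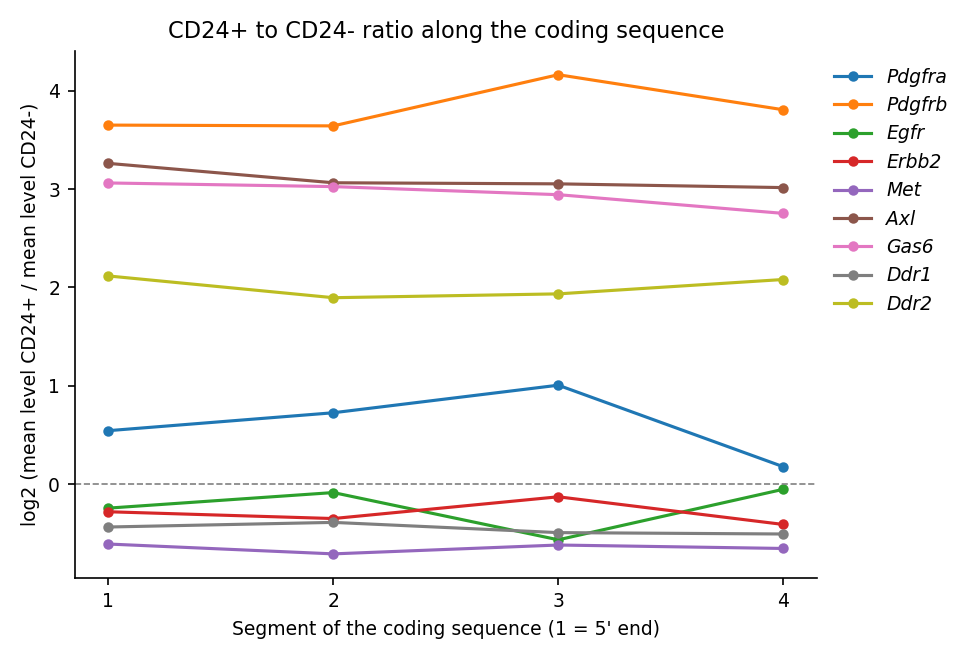
The log2 ratio of the mean CD24+ to the mean CD24- level in each of 4 equal segments of the coding sequence, from the 5′ end (1) to the 3′ end (4), 1 line per gene (Erbb3 left out for its few reads). Pdgfrb, Axl, Gas6 and Ddr2 stay between 1.90 and 4.16 in every segment, and Met and Ddr1 stay between -0.71 and -0.39.

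The reads deposited under Egfr were unlike those of the other members in 1 respect. Between 24.3% and 48.4% of them a library matched no annotated transcript of GENCODE M21, whereas the highest share of any other member was 10.6%, for Ddr2. A 5000-base window of mm9, chr11:16685000-16690000, held 651 reads of 477 distinct sequences that did not match the Egfr transcript, 70.5% of all such Egfr reads, 300 on one strand and 351 on the other. It lies 32787 bases downstream of the first Egfr read, and it was chosen after the values were seen. These reads came to 9.05, 9.29 and 15.1 CPM in CD24- and 9.75, 7.68 and 7.07 CPM in CD24+ libraries, and the groups overlapped (exact permutation p = 0.3). CD24- replicate 3 was the highest here. Without the window Egfr had 34.0, 29.1 and 28.4 CPM in CD24- and 24.5, 24.5 and 28.2 CPM in CD24+ libraries, so that the nearest values of the groups almost met.

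For Ddr2 the deposited annotation covered part of the transcript. Of the reads that matched only Ddr2 transcripts of GENCODE M21, 52.2% to 60.6% a library lay outside the annotation Ddr2 of the files. They came to 62.9, 58.4 and 68.5 CPM in CD24- and 329, 273 and 349 CPM in CD24+ libraries, and the groups stood apart as they did inside the annotation. The CPM of Ddr2 given above therefore leave these reads out.

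The difference was recomputed under 16 other settings, of which Pdgfra had a value in 15 and Erbb3 in 7. Pdgfrb, Axl, Gas6, Ddr2, Met and Ddr1 kept their direction and stayed under the threshold in all 16. The estimates closest to 0 for the 4 that rose came from counting each distinct sequence once (2.05 for Axl) or from median coverage with 10 added to each value (0.64 for Pdgfrb, 1.44 for Gas6 and 1.35 for Ddr2). For the other two of these 6, which fell, the estimate closest to 0 was -0.42 for Met (distinct sequences) and -0.22 for Ddr1 (median coverage). The added value of 10 draws the log2 difference of a low gene such as Pdgfrb towards 0.

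**Figure D4:**
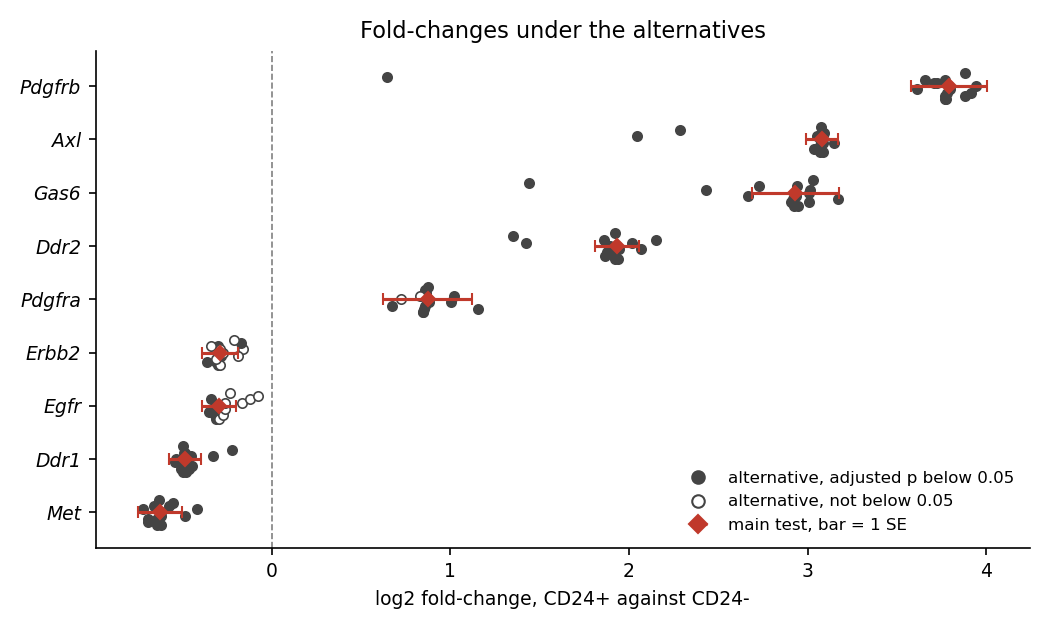
The log2 fold-change of CD24+ against CD24- cells for the 9 members tested, with the main test as a diamond (bar, 1 standard error) and each alternative setting as a circle, filled where the adjusted p was below 0.05. All circles of Pdgfrb, Axl, Gas6, Ddr2, Met and Ddr1 are filled, and 8 of 16 are open for Egfr and for Erbb2.

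Of 28 adaptors and effectors that receive the signal of these receptors, 24 were tested, 6 were higher, 5 lower and 13 did not pass, with a median log2 fold-change of 0.11. The share called, 45.8%, was that of all genes (46.1%). Pik3r3 and Pik3r1, regulatory subunits of PI3-kinase, rose by 1.90 and 0.87 (edgeR adjusted p = 2.53e-06 and 4.67e-05), and Shc1, an adaptor to the Ras pathway, by 0.72 (edgeR adjusted p = 0.000178). Gab2, a docking protein used by several of these receptors, had a log2 fold-change of -1.10 (edgeR adjusted p = 0.000874). Sos2, which is not among the annotations, gave -0.46 on reads that match its transcripts alone (edgeR adjusted p = 0.00278) and is outside these counts.

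Of 21 attenuators of receptor signalling, 18 were tested, 5 were higher, 2 lower and 11 did not pass, with a median of 0.10, and the share called was 38.9%, beside 46.1% of all genes. Lrig3, a leucine-rich membrane protein, rose from 0.842 ± 0.249 to 9.004 ± 1.02 CPM (SD, n = 3, log2 fold-change 3.44, edgeR adjusted p = 2.4e-06). Lrig3 reached the test only through the CD24+ libraries, so among the 5 higher its direction was set by the filter on low counts. Its relative Lrig1, which restrains ERBB receptors and was abundant in both groups, gave -0.05 (adjusted p = 0.733). Socs3 and Cd82 rose by 1.25 and 1.21 (edgeR adjusted p = 0.000104 and 0.000271), and Cbl, a ubiquitin ligase of activated receptors, had a log2 fold-change of -0.49 (edgeR adjusted p = 0.00543). Of 14 co-receptors and sheddases, 10 were tested, 3 were higher and 3 lower (60.0% called, beside 46.1% of all genes). Plxnb2, which is not among the annotations, gave 0.06 on reads that match its transcripts alone (edgeR adjusted p = 0.673). Nrp2, a neuropilin that binds growth factors beside their receptors, and Itgb1, the integrin beta 1 chain, rose by 0.67 and 0.34 (edgeR adjusted p = 0.000272 and 0.00719), and the Itgb1 call was lost under 3 alternatives. Cd44, which can present growth factors to MET, had a log2 fold-change of -0.30 (edgeR adjusted p = 0.0107). Timp3, an inhibitor of the sheddase ADAM17, had a log2 fold-change of 3.91 (edgeR adjusted p = 5.68e-07) and Timp1 of -0.78 (edgeR adjusted p = 0.00912). The sheddases themselves, Adam10 and Adam17, gave -0.01 and -0.08 (adjusted p = 0.941 and 0.463).

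**Figure D5:**
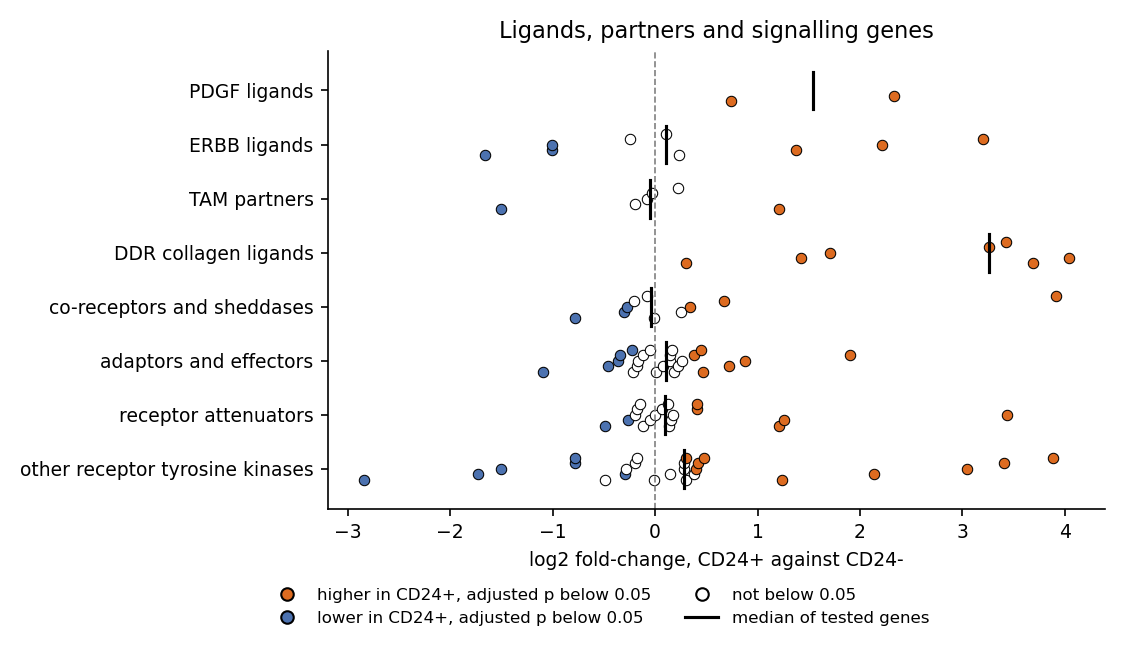
The log2 fold-change of every tested gene in each list of ligands, partners and signalling genes, filled where the adjusted p was below 0.05 (orange higher, blue lower in CD24+ cells), with the median of each list as a bar. The 7 tested collagens all lie above 0 with a median of 3.26, whereas the medians of the adaptors (0.11) and attenuators (0.10) are near 0.

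Of 49 other receptor tyrosine kinases, 25 had enough reads, 9 were higher and 6 lower in CD24+ cells (60.0% called, beside 46.1% of all genes). Their median log2 fold-change was 0.28. That of the 8 receptors tested here was 0.29, a value between those that rose and those that fell. The largest changes were those of Fgfr2 (3.88), Ephb3 (3.40), Epha7 (3.04) and Aatk (-2.85), with edgeR adjusted p of 3.3e-07, 1.84e-06, 9.03e-07 and 5.94e-06. Fgfr2, Ephb3 and Epha7 had means of 0.936, 1.65 and 2.54 CPM in CD24- cells, and of 13.8, 17.5 and 20.8 CPM in CD24+ cells. Fgfr2 and Ror1 reached the test only through the CD24+ libraries. Among the 9 higher, the direction of these genes was set by the filter on low counts, so the 60.0% cannot be weighed against the 46.1%.

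Over the 6 libraries, the genes of mean log2 CPM of at least 3 whose centred log2 CPM lay closest to Pdgfrb were Ntn1, Gas1 and Mpdz (Euclidean distances 0.474, 0.545 and 0.547), among 9203 genes searched. Ntn1 went from 22.5 to 264 CPM, Gas1 from 4.28 to 63.2 CPM and Mpdz from 14.1 to 185 CPM. The closest to Met were Kdsr, Ddx39 and Nol8 (distances 0.0922, 0.113 and 0.117), which fell by 0.66, 0.63 and 0.66 on the log2 scale. The 6 libraries fall into 2 groups, so these distances are a description only.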

How the data were processed

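Messenger RNA libraries (TruSeq v2, which does not mark strand) of 6 plates were sequenced as 51-nt single-end reads. The authors trimmed 2 nt from each end, collapsed identical reads, mapped each distinct sequence by exact match and gave it 1 location and 1 annotation. The deposited values are counts per distinct sequence, neither normalized nor pooled. The submitters' processing notes name the build mm9, and the sources used here give neither the mapping tool nor the source of the annotation. An exact match loses reads over exon junctions and over strain variants, and reads of overlapping or antisense genes cannot be told apart.

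Counts were summed per annotation that names a gene (14765 of 16024). Reads on repeats (7.56% to 10.2% of a library), on small RNA (0.355% to 0.468%) or without annotation (16.9% to 20.2%) were left out. Of the listed genes, 15 symbols are not among the annotations, which does not make them genes at 0, since Plxnb2, Sos2 and Nrg2 are among them and at least 20 reads matched the transcripts of each. Libraries held 9046025 to 25692147 mapped reads. Groups came from the labels, which give no batch or date. Genes passing filterByExpr were tested over all 6 libraries with edgeR 4.0.16 in R 4.3.3 (quasi-likelihood F test after TMM scaling, p-values adjusted by Benjamini-Hochberg, threshold 0.05), after a check on simulated counts. Some scarce genes, Epgn, Lrig3, Fgfr2 and Ror1 among them, passed this filter only through the CD24+ libraries, so their direction was set by it. Standard errors were derived from the F statistic. The reads were also matched to GENCODE M21 transcripts (GRCm38) by exact sequence. Single-gene matches and the shares without a match used all transcripts. Coverage, coding levels, segments and the Egfr window used 1 transcript per gene. Ratios were tested by exact permutation with SciPy 1.17.1. Alternatives were DESeq2 1.42.0, other scaling, other filters on low counts, distinct sequences, single-gene transcript matches, median coverage with limma 3.58.1, thinning, a replicate block and each library left out. Named were all members, Cd24a, every tested ligand, at most 4 called genes per list by size of change among those of mean log2 CPM of at least 0, and the 3 genes most like the members that rose and fell most. Genes named beyond this rule (Nrg2, Sos2, Plxnb2, Tyro3, Ggcx, Vkorc1, Vkorc1l1, Cd44, Lrig1, Adam10, Adam17, Notch3, Dcn, Cdh5, Ror1 and genes with few reads) were chosen after their values were seen. The members and lists were chosen with earlier results of these data known.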

Additional observations from a re-analysis of the deposited data

Results flagged for a closer look

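One result was flagged because it lies in reads that the sums per annotation leave out. Of the reads that match Ddr2 transcripts alone, at least 52.2% in every library lay outside the annotation Ddr2 of the files, above the share of 25% set for a flag, which also asked for more than 3 such reads in every library. Erbb3 passed the share (28.6% to 66.7%) but not the number, with 10, 14 and 4 such reads in CD24- and 2, 8 and 10 in CD24+ libraries. Groups of 3 libraries were not searched for single deviating samples, and the series holds 1 contrast.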

How the results depend on the processing

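The number of genes called moved by over 1.5 times only with median coverage, quantile normalization and limma, to 3290 from 5130. Leaving out 1 library gave 4069 to 5358. The number of members called was 6 to 10. Of 143 values for single members under alternatives, 125 kept their call and 18 lost it, and none changed sign. For Egfr the log2 fold-change was -0.17 with distinct sequences, -0.12 with single-gene matches, -0.079 with median coverage, -0.24 after thinning and -0.26 to -0.35 with 1 library left out. For Erbb2 it was -0.16 with distinct sequences, -0.21 after thinning and -0.19 to -0.36 with 1 library left out, and for Pdgfra 0.67 to 1.16 with 1 library left out, with no value under median coverage. The cause was not tested. The replicate numbers gave no sign of paired plates (correlations of same-numbered deviations 0.0143, -0.251 and -0.310), which so few plates cannot settle. With the replicate block 4493 genes were called, Egfr gave -0.29 (adjusted p = 0.0632) and Erbb2 -0.29 (adjusted p = 0.0559), and the other members kept their calls. Among other named genes, 14 of 703 values lost their call (5 each of Col1a2 and Col5a1, 3 of Itgb1 and 1 of Krt8) and 4 changed sign, none of these 4 called in either setting. Egf gave -0.049 with the replicate block and -0.213 to 0.433 with 1 library left out, below 0 without CD24- replicate 1 or CD24+ replicate 3, and Nrg4 gave -0.48 with single-gene matches. Of 240 counts of called genes per list, 18 moved by over 1.5 times. Few reads stand behind Pdgfra (703 over all libraries) and Erbb3 (61).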
